A study of Mus musculus with 18 samples.

Results

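Loss of the second Trp53 allele was examined in primary mouse embryonic fibroblasts (MEFs) with intact Pole4, by comparing 3 RNA-seq libraries of Pole4 wt Trp53 null cells (Pole4+/+ Trp53-/-) with 3 libraries of Pole4 wt Trp53 het cells (Pole4+/+ Trp53+/-), out of 18 libraries of 6 genotypes. The libraries were chosen by genotype label alone. The MEFs came from midgestation embryos on the C57BL/6 background, with the Trp53 null allele (Trp53tm1Brd) inherited through the germline and so present in every cell. They were grown at 5% oxygen and taken at passage 1, with no drug or irradiation named for these samples. Of the 51912 genes in the count table, 47415 are autosomal. After a filter on low counts 15710 genes were tested, 15134 of them autosomal, and only the autosomal genes are counted here. All 3 Trp53 het libraries were male and all 3 Trp53 null libraries female by Xist and 4 Y-linked genes, although null replicate 1 also held some Y-linked counts, so sex and Trp53 genotype cannot be told apart within this comparison. The other pair with the same question, Pole4 null Trp53 null against Pole4 null Trp53 het (3 libraries each, 1 male in each group), shares no library with it and is used below where it bears on the same genes.

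TRP53 (p53) is a transcription factor that binds a response element near its target genes as a tetramer. Its targets include Cdkn1a, whose product p21 inhibits cyclin-dependent kinases, genes of apoptosis and DNA repair, and Mdm2, which encodes the ligase that marks TRP53 for degradation and so closes a feedback loop. In dividing fibroblasts p21 keeps the RB proteins active and E2F target genes of DNA replication and mitosis restrained. A culture with 1 functional allele still makes TRP53, and the comparison asks what changes when that allele goes as well.

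Promoters of 4 of the genes that fell in Trp53 null cells hold a sequence like the p53 response element and are shown because they carry the element beside the measured change. RefSeq promoter windows (GRCm38.p6, 250 bases before to 50 after the gene start) were available for 10284 of the autosomal genes tested, matched by symbol, including 63 of the 79 genes called lower and 7 of the 10 called higher. Each was searched on both strands for the p53 response element, 20 bases made of 2 abutting 10-base repeats that each keep the core CNNG, with at most 2 mismatches in all. It was found in 32 windows (0.311%), in 4 of the 63 called lower (6.35%) and in 0 of the 7 called higher. A match is a description of the letters only, and the mismatch limit was chosen with the calls known. The 4 sequences run 5′ to 3′ on the gene's strand, with the element in capitals.
Cd80 (chr16:38458792-38458871, plus strand): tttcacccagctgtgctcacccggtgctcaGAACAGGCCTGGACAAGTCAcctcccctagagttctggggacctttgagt
Cdkn1a (chr17:29090898-29090977, plus strand): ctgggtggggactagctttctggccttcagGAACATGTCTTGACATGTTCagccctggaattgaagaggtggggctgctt
Ccng1 (chr11:40755432-40755511, minus strand): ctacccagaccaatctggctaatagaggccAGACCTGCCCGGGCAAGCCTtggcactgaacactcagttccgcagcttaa
Zfp365 (chr10:67912676-67912755, minus strand): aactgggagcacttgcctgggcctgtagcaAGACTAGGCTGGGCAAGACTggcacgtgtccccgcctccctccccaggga
The element starts 111 bases before the RefSeq gene start in Cd80, 51 in Cdkn1a, 195 in Ccng1 and 63 in Zfp365; for Cdkn1a that start is not the one given with the gene below, which comes from the annotation of the count table. It departs from the consensus at 1 base in Cdkn1a and Ccng1 and at 2 bases in Cd80 and Zfp365.

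The targeted gene was read first. Trp53 (ENSMUSG00000059552, chromosome 11, 69580359 to 69591873 of GRCm38) stood at 58.4, 56.2 and 59.6 CPM (read counts scaled to a common library size by edgeR's TMM method, in the usual CPM unit) in Trp53 het replicates 1 to 3 and at 11.5, 8.65 and 12.05 CPM in Trp53 null replicates 1 to 3. The 2 groups were far apart and each was tight. The fitted log2 difference was -2.44 (SE 0.12, adjusted p 6.14e-09 by edgeR's quasi-likelihood test with Benjamini-Hochberg adjustment over all 15710 genes), a 5.42-fold lower level, and some reads were still assigned to the gene in every null library. The Pole4 wt Trp53 wt libraries, which are not part of the comparison, held 89.7, 96.1 and 86.6 CPM. Pole4 had 22.1, 23.1 and 18.2 CPM in Trp53 het and 14.2, 25.4 and 26.4 CPM in Trp53 null cells (log2 fold change 0.05, SE 0.19, adjusted p 0.978), with overlapping groups.

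The libraries held 32441774, 17869991 and 9535971 counts in Trp53 het and 28422803, 25856820 and 10608167 in Trp53 null cells, and the share of ribosomal RNA genes ranged from 0.968% to 26.8% and from 1.82% to 13.1%. All 15 fibroblast markers were above 1 CPM in each of the 6 libraries, with a summed level of 20990 to 26710 CPM in Trp53 het and 16640 to 22160 CPM in Trp53 null cells. Summed macrophage markers lay between 10.8 and 44.3 CPM and between 9.85 and 39.5 CPM, endothelial markers between 24.5 and 26.0 CPM and between 18.8 and 20.6 CPM, skeletal muscle markers between 64.9 and 85.1 CPM and between 52.1 and 59.2 CPM, and erythroid markers at no more than 2.51 CPM. Summed epithelial markers lay between 12.1 and 17.8 CPM in Trp53 het and between 7.89 and 32.9 CPM in Trp53 null cells, neural markers between 407 and 466 CPM and between 279 and 471 CPM, cartilage and bone markers between 724 and 951 CPM and between 476 and 742 CPM, and adipocyte markers between 11.7 and 14.0 CPM and between 16.1 and 24.9 CPM. Fewer cells of a type and less RNA per cell cannot be told apart in such bulk samples. The Trp53 null replicate 1 stands apart from the other 2 null libraries, as described below, and list counts that move by over 1.5 times without it are given both ways.

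With all libraries in the edgeR model, more genes were lower than higher in Trp53 null cells, but without null replicate 1 (680 lower, 777 higher) and with voom (450 lower, 703 higher) the balance was the other way. Of the 15134 autosomal genes tested, 79 (0.522%) were called lower and 10 (0.0661%) higher in Trp53 null cells (adjusted p under 0.05), and 47 of the 79 and 6 of the 10 differed by at least 1 on the log2 scale. An unadjusted p under 0.05 was reached by 637 genes that were lower and 765 that were higher. In all 89 called genes the 3 null libraries lay on the same side of the 3 het libraries, as they did for 4.84% of all genes tested on the lower and 4.14% on the higher side. The median log2 fold change was -1.21 among the genes called lower and 1.20 among those called higher, against 0.03 over all genes. For each called gene a two-sided exact permutation test over the 6 libraries gave p = 0.1, the smallest that this design allows. With the Y-linked level as a covariate over all 18 libraries, 34 of the 79 and 0 of the 10 stayed called, and all 89 kept their direction. These 34 were the only autosomal genes called lower in that fit (0.225%), and 0 were called higher.

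**Figure D1:**
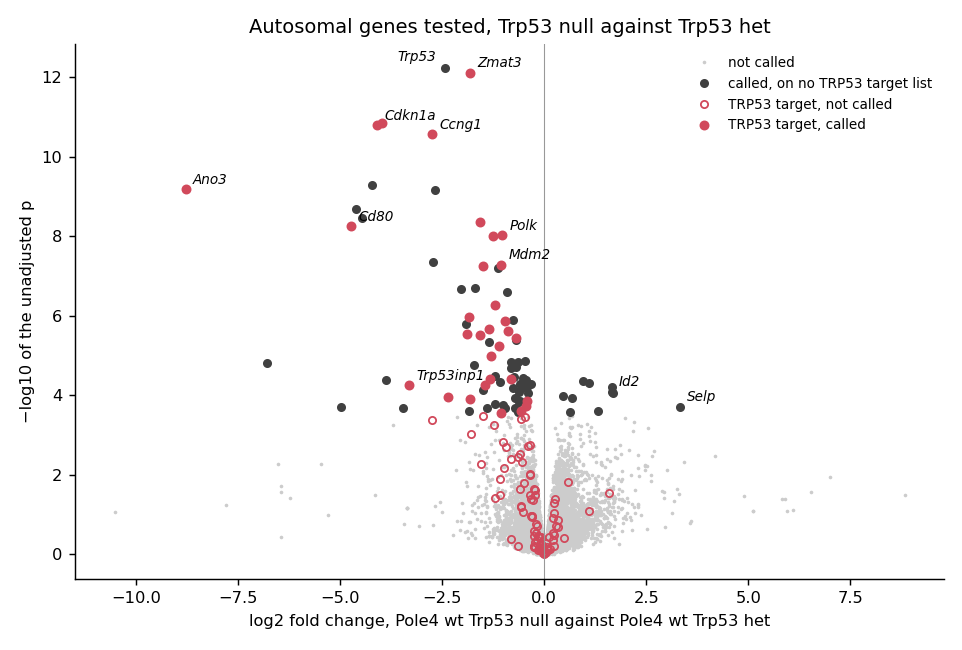
Log2 fold change (x axis) and -log10 of the unadjusted p (y axis) of the 15134 autosomal genes tested, Trp53 null against Trp53 het in Pole4 wt cells. Red points are listed TRP53 targets (filled where called), dark points other called genes and grey points the rest: 79 called genes lie left of 0 and 10 right of it, and none of the filled red points lies to the right.

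Listed TRP53 targets made up 31 of the 79 genes called lower (39.2%) and none of the 10 called higher. The 6 target lists hold 124 genes, of which 118 autosomal ones were tested. Their median log2 fold change was -0.34, against 0.03 over all autosomal genes, and 31 of 118 were called lower against 0.522% of all genes. An unadjusted p under 0.05 was reached by 60 of the 118 on the lower and 3 on the higher side. The summed level of the targets was 5213, 4949 and 5015 CPM in Trp53 het and 3585, 3237 and 3090 CPM in Trp53 null replicates 1 to 3, so that no null library reached a het one. Without null replicate 1, 54 of the 118 were called lower and 3 higher (4.43% and 5.06% of all genes), and with the Y-linked covariate 19 were called lower and 0 higher (0.225% and 0% of all genes). These lists are of textbook targets and were drawn up with results of these data known.

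Genes of growth restraint and of feedback on TRP53 included several with wide gaps between the groups. Of the 21 genes of arrest and growth restraint tested, 4 were called lower (Cdkn1a, Ccng1, Zmat3 and Sesn2) and 0 higher, with a median log2 fold change of -0.33. Of the 12 feedback genes tested, 4 were called lower (Mdm2, Ccng1, Trp53inp1 and Ei24) and 0 higher, with a median of -0.55. Of all genes, 0.522% were called lower and 0.0661% higher. Without null replicate 1 the restraint list had 8 called lower, at a median of -0.69, and the feedback list 7, where 4.43% of all genes were. With the replicate number as a block the restraint list had 7, where 89 of all 15134 autosomal genes tested were called lower.

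Cdkn1a (ENSMUSG00000023067, chromosome 17, 29090976 to 29100727), the gene of the CDK inhibitor p21, had 188, 179 and 149 CPM in the het and 11.8, 12.03 and 5.66 CPM in the null libraries. The lowest het library was above the highest null library by more than an order of magnitude. On the log2 scale the difference was -4.10 (SE 0.24, adjusted p 5.06e-08), a 17.1-fold lower level. Ccng1, encoding cyclin G1, which recruits a phosphatase to MDM2, fell from 465, 557 and 436 to 77.4, 88.4 and 52.0 CPM (-2.74, SE 0.17, adjusted p 7.20e-08). Zmat3, which encodes a zinc finger RNA-binding protein, had the smallest SE of the 4 restraint genes. It had 168, 154 and 155 CPM in the het and 45.1, 43.5 and 45.6 CPM in the null libraries (-1.83, SE 0.09, adjusted p 6.14e-09). Sesn2, which encodes sestrin 2, a restraint on mTORC1 signalling, fell from 70.9, 61.1 and 59.6 to 27.7, 31.2 and 17.5 CPM (-1.32, SE 0.21, adjusted p 0.00438).

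Mdm2 (ENSMUSG00000020184, chromosome 10, 117688875 to 117710758) had 93.7, 99.6 and 80.3 CPM in the het and 36.3, 47.8 and 47.5 CPM in the null libraries. The gene kept a sizeable level without Trp53, and its fall was 2.08-fold (log2 fold change -1.06, SE 0.11, adjusted p 4.78e-05). Trp53inp1, which encodes a nuclear protein that promotes TRP53 activity, had 85.7, 63.0 and 76.5 CPM in the het libraries. In the null libraries it had 16.3 CPM in replicate 1 but 3.45 and 1.29 CPM in replicates 2 and 3. Here the first null library sat between the het and the other null libraries, and the log2 fold change of -3.32 (SE 0.58, adjusted p 0.0150) went to -4.88 without it. Leaving out another library gave an adjusted p of up to 0.0631. Ei24, an endoplasmic reticulum membrane protein gene, fell from 65.9, 72.8 and 60.0 to 34.8, 46.1 and 42.0 CPM (-0.69, SE 0.10, adjusted p 0.00181).

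**Figure D2:**
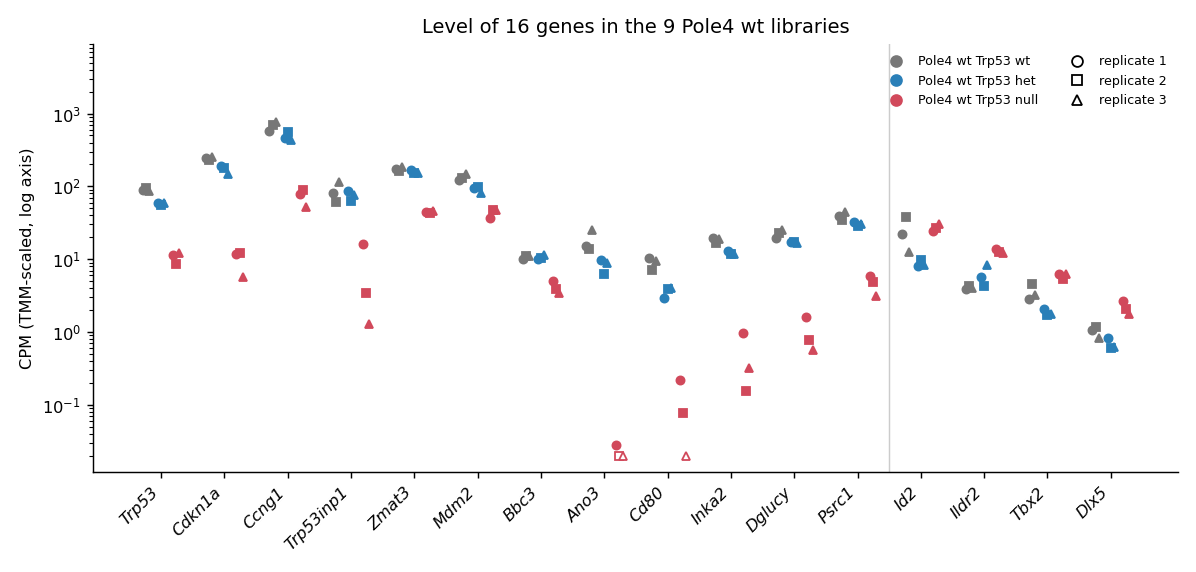
TMM-scaled CPM (log axis) of 16 genes in each of the 9 Pole4 wt libraries, with colour for the Trp53 genotype and marker shape for the replicate number; open markers at the bottom stand for 0 counts. To the left of the line the 3 null libraries lie below the 3 het libraries for Trp53 and 11 genes called lower, and to the right they lie above them for 4 of the 10 genes called higher.

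Of the 23 apoptosis genes tested, 8 were called lower and 0 higher (0.522% and 0.0661% of all genes), with a median log2 fold change of -0.52. The count was 5 without het replicate 1, het replicate 3 or null replicate 2, where 53, 53 and 62 of all autosomal genes tested were called lower. It was 11 without null replicate 1 (4.43% of all genes) and 5 with the Y-linked covariate (0.225% of all genes). With only the 9 Pole4 wt libraries it was 4, where 39 of all genes were called lower. Phlda3, which encodes an inhibitor of AKT signalling, fell from 69.8, 74.3 and 56.9 to 18.2, 29.6 and 22.7 CPM (-1.51, SE 0.16, adjusted p 4.95e-05). Bbc3, the gene of the BH3-only protein PUMA, fell from 10.1, 10.4 and 11.4 to 4.99, 3.92 and 3.40 CPM (-1.36, SE 0.19, adjusted p 0.00124). Bax, whose product forms pores in the mitochondrial outer membrane, fell from 61.5, 65.4 and 52.5 to 25.5, 37.4 and 29.9 CPM (-0.95, SE 0.13, adjusted p 8.22e-04). For each of these the groups were separated by a clear gap. Tnfrsf10b, encoding a death receptor for TRAIL, fell from 37.6, 34.9 and 39.6 to 19.6, 17.7 and 23.0 CPM (-0.90, SE 0.13, adjusted p 0.00130). The other 4 called members were Apaf1, Zfp385a, Trp53inp1 and Ei24.

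DNA repair genes pointed both ways. Of the 15 repair and nucleotide supply targets tested, 3 were called lower and 0 higher (0.522% and 0.0661% of all genes), 8 had a log2 fold change below 0 and 7 above, and the median was -0.11. With null replicate 1 left out, 3 were called lower and 3 higher (4.43% and 5.06% of all genes) and the median was -0.33, while with the Y-linked covariate it was -0.03. The 3 called lower with all libraries were Polk, the gene of translesion polymerase kappa, at 37.5, 33.3 and 37.6 against 17.9, 18.2 and 16.7 CPM (-1.04, SE 0.09, adjusted p 1.07e-05), Mgmt, which removes alkyl groups from guanine, and Ercc5, a nucleotide excision repair nuclease. Mgmt stood at 4.797, 4.06 and 3.37 CPM against 1.53, 0.776 and 1.05 CPM (-1.85, SE 0.24, adjusted p 6.93e-04). Ercc5 stood at 27.9, 25.1 and 25.4 CPM against 17.4, 12.6 and 14.4 CPM (-0.82, SE 0.14, adjusted p 0.0128).

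Among the 27 metabolism and autophagy targets tested, 4 were called lower and 0 higher (0.522% and 0.0661% of all genes), with a median log2 fold change of -0.25. The count was 12 without null replicate 1 (4.43% of all genes) and with voom (2.97% of all genes), and 2 with the Y-linked covariate (0.225% of all genes). Dglucy, encoding the mitochondrial D-glutamate cyclase, fell 15.8-fold, from 17.3, 17.3 and 16.6 to 1.62, 0.776 and 0.566 CPM (-3.98, SE 0.23, adjusted p 5.06e-08). Ak1, the cytosolic adenylate kinase, fell from 69.2, 76.8 and 65.4 to 27.1, 17.2 and 11.5 CPM (-1.90, SE 0.26, adjusted p 0.00152). Ulk2, a kinase that starts autophagy, went from 60.1, 57.9 and 58.0 to 48.5, 44.3 and 37.6 CPM, a small step (-0.43, SE 0.09, adjusted p 0.0289). The fourth member was Sesn2, described above.

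The remaining target list, of genes with scattered roles, had 15 of 32 tested members called lower (0.522% of all genes), 0 higher, and the lowest median of the 6 lists, -0.93. The count was 10 without het replicate 1 or het replicate 3 (53 of all genes tested in each) and 8 with the Y-linked covariate (0.225% of all genes). Ano3, a member of the anoctamin family of membrane scramblases and channels, had 9.91, 6.26 and 8.87 CPM in the het libraries. In the null libraries it had 1, 0 and 0 counts. Taking 3 counts per library as the floor, it was at least 56.6-fold lower, and the adjusted p was 1.18e-06. Cd80, the gene of a ligand that costimulates T cells, had 2.97, 3.93 and 4.08 CPM against 8, 2 and 0 counts in the null libraries (-4.73, SE 0.42, adjusted p 6.90e-06). Slc19a2, a thiamine transporter gene, fell from 31.1, 25.0 and 28.5 to 8.59, 10.1 and 9.62 CPM (-1.58, SE 0.14, adjusted p 5.77e-06). Zfp365, encoding a zinc finger protein of genome stability, fell from 20.99, 23.3 and 20.4 to 9.71, 11.0 and 6.95 CPM (-1.21, SE 0.15, adjusted p 3.63e-04), named for its promoter element. Exons of Ano3 overlap those of Muc15, of Bax Gm45808, of Ei24 Gm26787, of Eng Fpgs and of Klhdc7a Mir2139, and among the genes called higher those of Selp, Ildr2 and Celf2 overlap predicted genes: the library kit is not said to keep the strand, so reads of the overlapping stretches may belong to either gene.

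The other 48 genes called lower are on no target list. Inka2, which encodes an inhibitor of the kinase PAK4, fell 22.2-fold, from 13.1, 11.9 and 11.8 to 0.976, 0.155 and 0.323 CPM (-4.48, SE 0.38, adjusted p 5.05e-06). Psrc1, which encodes a microtubule-binding protein of the spindle, fell from 32.8, 28.8 and 30.1 to 5.83, 4.85 and 3.15 CPM (-2.69, SE 0.20, adjusted p 1.18e-06). Klhdc7a was near the limit of detection, with 0.451, 0.333 and 1.15 CPM in the het libraries and 0, 1 and 0 counts in the null ones, which makes it at least 4.37-fold lower (adjusted p 0.0382). Inhbb, the gene of the activin B subunit, fell from 33.0, 31.7 and 29.3 to 3.93, 3.92 and 6.87 CPM (-2.72, SE 0.27, adjusted p 4.33e-05) and was chosen after its values were seen. Col18a1, whose product is the basement membrane collagen XVIII, was the only one of 39 tested collagen and matrix genes to be called, at 108, 96.2 and 94.1 against 26.6, 22.9 and 22.8 CPM (-2.05, SE 0.23, adjusted p 1.56e-04). Eng, the endoglin gene and 1 of 6 tested endothelial markers, 4 of which had a log2 fold change above 0, went from 21.5, 18.8 and 18.8 to 11.2, 14.7 and 11.8 CPM (-0.65, SE 0.14, adjusted p 0.0452). The call of Eng was lost with the replicate block (adjusted p 0.0573), with the Y-linked covariate (adjusted p 0.353) and without any 1 of the het libraries or null replicate 3 (adjusted p up to 0.185).

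Of the 79, 73 are protein coding. The 10 lowest log2 fold changes include 4 predicted transcripts. Gm42047, a lincRNA on chromosome 8, was the most abundant of them, with 88.5, 97.6 and 95.7 CPM in the het and 5.36, 4.07 and 5.74 CPM in the null libraries (-4.23, SE 0.30, adjusted p 1.14e-06). Gm47761, a lincRNA on chromosome 10, fell from 10.4, 11.0 and 9.05 to 0.391, 0.388 and 0.485 CPM (-4.62, SE 0.38, adjusted p 3.24e-06). The other 2, Gm13067 (chromosome 4, 150049013 to 150056976) and Gm37795 (chromosome 4, 150068539 to 150070997), are near neighbours, and the second overlaps the annotated microRNA gene Mir34a, whose mature product was not measured here. Gm13067 (adjusted p 0.00593) had 0.742, 0.333 and 0.798 CPM in the het libraries and 0 counts in all null libraries, at least 4.23-fold lower by the floor of 3 counts per library. Gm37795 had 4.35, 1.73 and 6.30 CPM against 0.418, 0.116 and 0.243 CPM (-3.88, SE 0.69, adjusted p 0.0129).

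Of the 10 genes called higher, 6 rose by at least 1 on the log2 scale. Id2, which encodes a helix-loop-helix protein that blocks the DNA binding of its partners, rose from 8.14, 9.65 and 8.34 to 24.1, 27.2 and 30.6 CPM (1.65, SE 0.31, adjusted p 0.0195). Tbx2, a T-box transcription factor gene, rose from 2.07, 1.73 and 1.77 to 6.33, 5.43 and 6.22 CPM (1.67, SE 0.32, adjusted p 0.0205). Dlx5, a homeobox gene of bone formation, rose from 0.822, 0.599 and 0.621 to 2.68, 2.06 and 1.78 CPM (1.65, SE 0.30, adjusted p 0.0158). These 3 rose by about the same factor, 3.13 to 3.19. Selp, the gene of the adhesion receptor P-selectin, had the largest SE of the 10, with 0.159, 0.133 and 0.177 CPM against 1.00, 0.621 and 3.48 CPM (3.32, SE 0.69, adjusted p 0.0382). Ildr2 rose from 5.70, 4.33 and 8.25 to 13.8, 12.5 and 12.2 CPM (1.09, SE 0.20, adjusted p 0.0140), and Megf10, which encodes a receptor for engulfment, from 6.55, 6.86 and 4.26 to 11.2, 17.3 and 16.01 CPM (1.31, SE 0.28, adjusted p 0.0452).

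The other 4 rose less. Ulbp1, encoding a ligand of the NKG2D receptor of natural killer cells, had 14.4, 12.2 and 11.1 CPM against 19.97, 22.6 and 31.0 CPM (0.95, SE 0.17, adjusted p 0.0133). Ifit2, an interferon-induced gene, had 11.4, 10.8 and 10.8 against 19.3, 17.2 and 16.5 CPM (0.68, SE 0.13, adjusted p 0.0255), and Celf2, a regulator of RNA splicing, had 48.8, 42.3 and 44.5 against 58.3, 62.8 and 64.4 CPM (0.45, SE 0.09, adjusted p 0.0231). Fndc4, which encodes a secreted fibronectin type III protein, went from 10.8, 10.1 and 10.3 to 13.3, 16.9 and 17.9 CPM (0.62, SE 0.13, adjusted p 0.0452). With the replicate number as a block, Selp, Megf10 and Fndc4 were no longer called (adjusted p 0.0689, 0.0595 and 0.0546). None of the 10 remained called under all 6 ways of leaving out 1 library, whereas 42 of the 79 lower genes did. Without Trp53 het replicate 1, 2 or 3 the number called higher was 2, 0 and 1.

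For some genes the Trp53 het cells, and not the null cells, stood apart from Trp53 wt cells. The comparisons with Trp53 wt use the same het and null libraries, so their values are given side by side and not as further evidence. Of the 79 genes called lower, 70 were also called lower in Trp53 null against Trp53 wt cells (background 2.36%), and 6 of the 10 called higher were called higher there (background 2.24%). Of the 79, 4 were called lower in Trp53 het against Trp53 wt cells (background 0.403%), namely Trp53, Mdm2, Cd80 and Tnfrsf10b, and 3 were called higher there (background 0.496%), namely Il1rl1, Ide and Foxk1. Il1rl1, which encodes the receptor of interleukin 33, had 168, 111 and 145 CPM in Trp53 wt, 400, 270 and 352 CPM in Trp53 het and 123, 201 and 184 CPM in Trp53 null cells. Ide, the gene of insulin-degrading enzyme, had 78.8, 72.8 and 72.4 CPM, then 152, 110 and 112 CPM, then 74.1, 80.8 and 71.4 CPM. Both were highest in the het libraries, and the wt and null libraries overlapped. On the higher side, 2 of the 10, Id2 and Selp, were called lower in Trp53 het against Trp53 wt cells: Id2 had 21.98, 37.7 and 12.6 CPM in Trp53 wt and Selp 2.03, 3.83 and 1.36 CPM, ranges that the null libraries overlapped. Among the Pole4 wt genotypes the het libraries are the male ones, and the 3 Trp53 wt libraries are female like the null ones. Il1rl1 and Foxk1 were chosen after their values were seen.

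For Cdkn1a, Ccng1, Mdm2 and Zmat3 the het level lay closer to the wt than to the null level. Cdkn1a averaged 242 CPM in Trp53 wt, 172 ± 20.4 CPM (SD, n = 3) in Trp53 het and 9.83 ± 3.61 CPM (SD, n = 3) in Trp53 null cells, and the log2 difference between het and wt was -0.49 (adjusted p 0.396). Ccng1 averaged 682, 486 and 72.6 CPM, with a log2 difference between het and wt of -0.49 (adjusted p 0.198). Mdm2 averaged 134, 91.2 and 43.9 CPM, with one of -0.56 (adjusted p 0.0227). Zmat3 averaged 174, 159 and 44.7 CPM, with one of -0.14 (adjusted p 0.681).

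The same allele was lost in Pole4 null cells, and the genes called lower there largely included those above. Of the 79 genes called lower in Pole4 wt cells, 73 were called lower in Pole4 null Trp53 null against Pole4 null Trp53 het cells, where 6.05% of autosomal genes were, and 78 had the same direction. Of the 10 called higher, 6 were called higher there, where 6.55% were, and all 10 had the same direction. The median log2 fold change of the 79 was -1.38 in Pole4 null cells against -1.21 in Pole4 wt cells. The 6 that were not called lower in Pole4 null cells were C430002N11Rik, Il1rl1, Ddias, Ide, Tnfrsf11b and Nfe2l2, and all but Ide were picked for naming with their values in view. Ide had 74.4, 75.3 and 68.7 CPM in Pole4 null Trp53 het and 82.1, 123 and 85.1 CPM in Pole4 null Trp53 null cells, the opposite direction from Pole4 wt cells. Tnfrsf11b, which encodes the decoy receptor osteoprotegerin, had 90.5, 90.9 and 89.6 against 57.6, 61.0 and 57.3 CPM in Pole4 wt cells, and 93.4, 75.2 and 89.7 against 89.2, 94.1 and 60.5 CPM in Pole4 null cells.

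**Figure D3:**
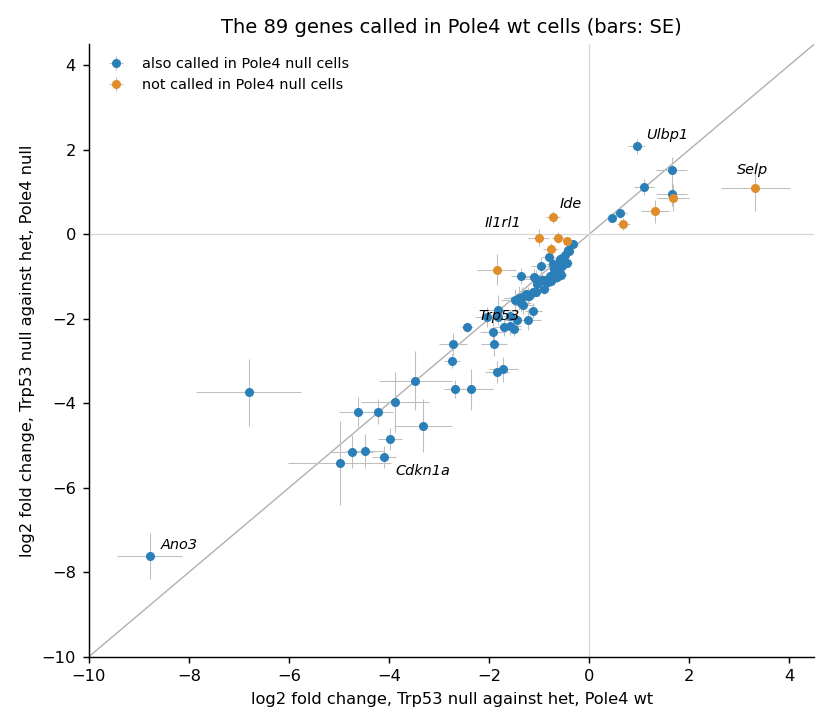
Log2 fold change of Trp53 null against Trp53 het in Pole4 wt (x axis) and in Pole4 null cells (y axis) for the 89 genes called in Pole4 wt cells, with SE bars and the line of equal change. Blue points were called in both backgrounds, and orange points in Pole4 wt cells alone: 78 of the 79 lower and all 10 higher genes lie on the same side of 0 in both, the exception being Ide.

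The difference between the backgrounds was tested as an interaction in the same edgeR model. No autosomal gene was called (lowest adjusted p 0.193), 966 had an unadjusted p under 0.05, DESeq2 called 19 and voom 3, and adding the replicate number as a block gave 1. Of the 79 genes called lower, 14 had an unadjusted interaction p under 0.05, with the fall larger in Pole4 null cells for 10 and in Pole4 wt cells for 4. Cdkn1a was among the 10, with a log2 fold change of -5.28 in Pole4 null against -4.10 in Pole4 wt cells (interaction adjusted p 0.631). The gene with the lowest adjusted interaction p among the 89 was Ide (0.213). The other genes with the lowest p in this test were Net1, Ebf2, Vat1l and Lpin3, none of them called in Pole4 wt cells, at log2 fold changes of -0.17, 0.61, -0.54 and 0.06 there and of 0.68, -1.46, 1.32 and -1.13 in Pole4 null cells.

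Genes of the cell cycle were not called in the comparison, but 2 of the 3 null libraries held more of their transcripts. Over 6 lists, of origin licensing and firing, polymerases and fork factors, nucleotide supply, G1/S regulators, mitosis, and homologous recombination with the Fanconi anemia pathway, 203 genes were tested and 0 were called in either direction by edgeR, 119 had an unadjusted p under 0.05 on the higher and 2 on the lower side, 193 had a log2 fold change above 0, and the median was 0.40 against 0.03 over all genes. DESeq2 called 5 higher and 2 lower, where it called 0.363% and 0.945% of all genes, and voom called 127 higher and 2 lower, where it called 4.65% and 2.97%. Summed over the lists, the level was 10410, 10090 and 9408 CPM in Trp53 het and 9299, 13230 and 14510 CPM in Trp53 null replicates 1 to 3. The first null library was below every het library and the other 2 above every one. Null replicates 2 and 3 lay above all 3 het libraries for 189 and 186 of the 203 genes, and replicate 1 for 43, beside 33.3%, 34.4% and 32.9% of all autosomal genes tested. Without Trp53 null replicate 1, 137 of 203 were called higher and 3 lower, where 5.06% and 4.43% of all genes were. In the Pole4 null cells, which share no library, 157 of the 203 were called higher and 3 lower, where 6.55% and 6.05% of all genes were.

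**Figure D4:**
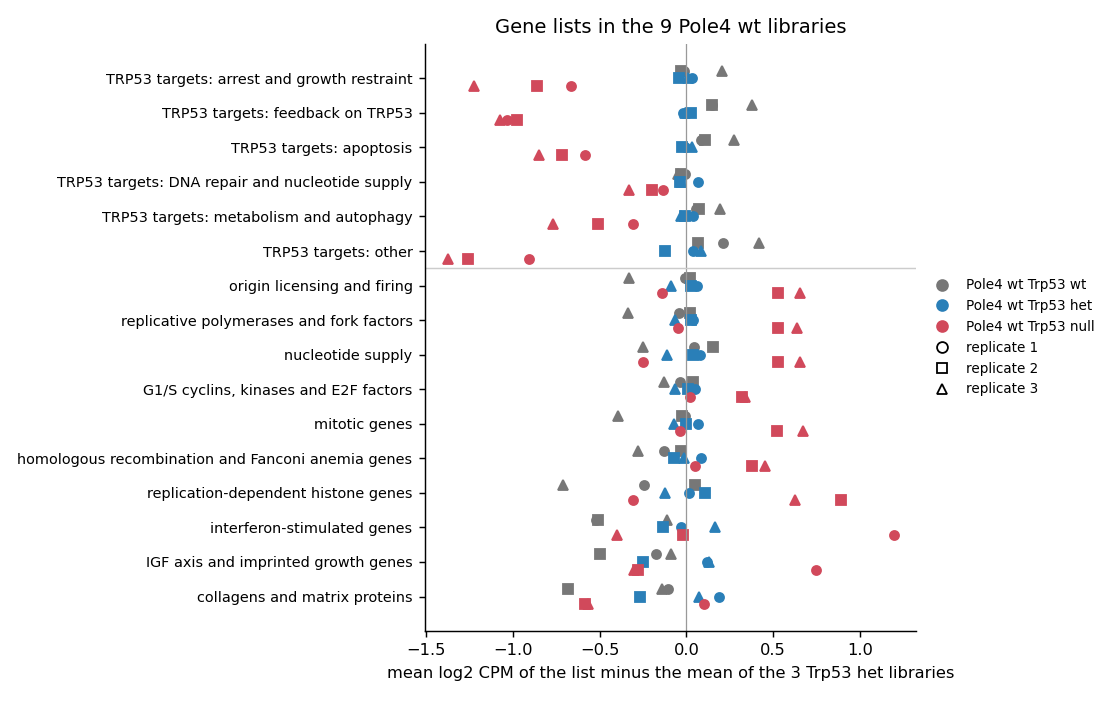
Mean log2 CPM of the tested members of 16 gene lists in each Pole4 wt library, minus the mean of the 3 Trp53 het libraries (x axis), with colour for the Trp53 genotype and marker shape for the replicate. All 3 null libraries lie left of the het libraries for the 6 TRP53 target lists (above the line), while for the cell cycle lists null replicates 2 and 3 lie to the right and replicate 1 lies near or left of the het libraries.

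The median over all 203 was 0.56 without null replicate 1 and 0.26 with the Y-linked covariate, with which 0 were called. It was above 0 in each of the 6 lists with all libraries. Licensing and firing genes had a median log2 fold change of 0.41 over 30 genes, polymerase and fork genes 0.43 over 35, nucleotide supply genes 0.40 over 17, G1/S genes 0.26 over 34, mitotic genes 0.43 over 64 and recombination and Fanconi genes 0.32 over 24. Without null replicate 1, the counts called higher were 22 licensing, 26 polymerase and fork, 10 nucleotide supply, 14 G1/S, 55 mitotic and 11 recombination and Fanconi genes, with 1 polymerase and fork and 2 G1/S genes lower. Ccna2, the gene of cyclin A2, had 120, 117 and 105 CPM in the het and 102, 183 and 202 CPM in the null libraries (log2 fold change 0.51, SE 0.21, adjusted p 0.457). Cdk1, the kinase of mitotic entry, had 68.4, 73.6 and 60.7 against 63.5, 107 and 124 CPM (0.54, SE 0.20, adjusted p 0.370). E2f1, an activator of S-phase genes, had 20.5, 21.2 and 21.4 against 21.8, 29.95 and 28.7 CPM (0.35, SE 0.12, adjusted p 0.327). Pole, which encodes the catalytic subunit of DNA polymerase epsilon, had 44.4, 39.3 and 39.6 against 37.5, 55.3 and 76.7 CPM (0.45, SE 0.19, adjusted p 0.495). Its partner subunit genes Pole2 and Pole3 had log2 fold changes of 0.43 and 0.27, and Ccne1, Ccne2 and Cdk2 of 0.14, 0.40 and 0.33, with adjusted p between 0.401 and 0.929 for these 5. Without null replicate 1, Ccna2, Cdk1, E2f1, Pole, Pole2, Ccne2 and Cdk2 were called higher, at log2 fold changes of 0.43 to 0.75, and Pole3 and Ccne1 were not (adjusted p 0.0542 and 0.142).

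The members with the lowest p on each list were higher in all null libraries in some cases. Rfc1, the large subunit of the clamp loader, had 67.1, 71.2 and 67.8 against 76.6, 90.9 and 90.5 CPM (0.32, SE 0.08, adjusted p 0.104). Tyms, the gene of thymidylate synthase, had 27.1, 28.8 and 26.5 against 31.5, 44.8 and 48.8 CPM (0.60, SE 0.15, adjusted p 0.107), and Rad54b, of homologous recombination, 6.86, 5.32 and 6.92 against 8.42, 9.74 and 11.2 CPM (0.61, SE 0.15, adjusted p 0.102). In these 3 the groups did not overlap, as in 4.14% of all genes tested on the higher side, but the adjusted p missed the threshold. Timeless, Brca1, Kif20b and Cenpa gave 0.49, 0.35, 0.60 and 0.51 on the log2 scale (adjusted p 0.129, 0.220, 0.147 and 0.199), Orc6, Mcm10 and Tk1 gave 0.66, 0.71 and 0.69 (0.255, 0.265 and 0.248), and the histone genes Hist1h4i and Hist1h2ad gave 0.61 and 0.82 (0.326 and 0.394). Rb1, the retinoblastoma gene, and Ccnd2, encoding cyclin D2, had the lowest p on the G1/S list and pointed the other way. Rb1 had 17.7, 18.8 and 19.3 against 15.5, 12.03 and 9.62 CPM (-0.57, SE 0.13, adjusted p 0.0583), and Ccnd2 953, 936 and 835 against 710, 661 and 547 CPM (-0.51, SE 0.13, adjusted p 0.150). The 35 replication-dependent histone genes tested had a median of 0.47, with 0 called. Of the 35, 18 were called higher without null replicate 1 (5.06% of all genes) and 25 with voom (4.65% of all genes), at medians of 0.76 and 0.73, while with the Y-linked covariate 0 were called and the median was 0.09.

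Leaving out Trp53 null replicate 1 changed the count of calls more than any other single library. Without it, 680 autosomal genes of 15366 tested were called lower (4.43%) and 777 higher (5.06%), including all 89 genes of the full comparison. With any other single library left out, between 53 and 65 were called lower and between 0 and 9 higher. Of the 777, 399 (51.4%) were also called higher in Pole4 null cells and 0 lower, and of the 680, 324 (47.6%) were also called lower and 0 higher, where 6.55% of all genes were called higher and 6.05% lower. The 399 made up 40.3% of the 991 genes called higher there, and the 324 made up 35.4% of the 915 called lower. The first null library had the higher level of Trp53inp1 given above, 4.52 CPM of Ddit4l against 1.44 and 1.05 CPM, and 22.6 CPM of Ephx1 against 6.01 and 4.45 CPM, where the het libraries had 55.4 to 63.0 CPM of Ephx1. Its Trp53 level of 11.5 CPM lay between those of the other 2 null libraries. It held 258 counts of the Y-linked genes Ddx3y, Eif2s3y, Kdm5d and Uty, together 7.20 CPM or 4.16% of the mean of the 3 male het libraries, beside 857 CPM of Xist. The other 10 female libraries held between 0 and 10 such counts. These counts leave it possible that RNA of a male sample is mixed into this library, which was not tested, so its values may not be those of Trp53 null cells alone. Ddit4l and Ephx1 were chosen after their values were seen.

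**Figure D5:**
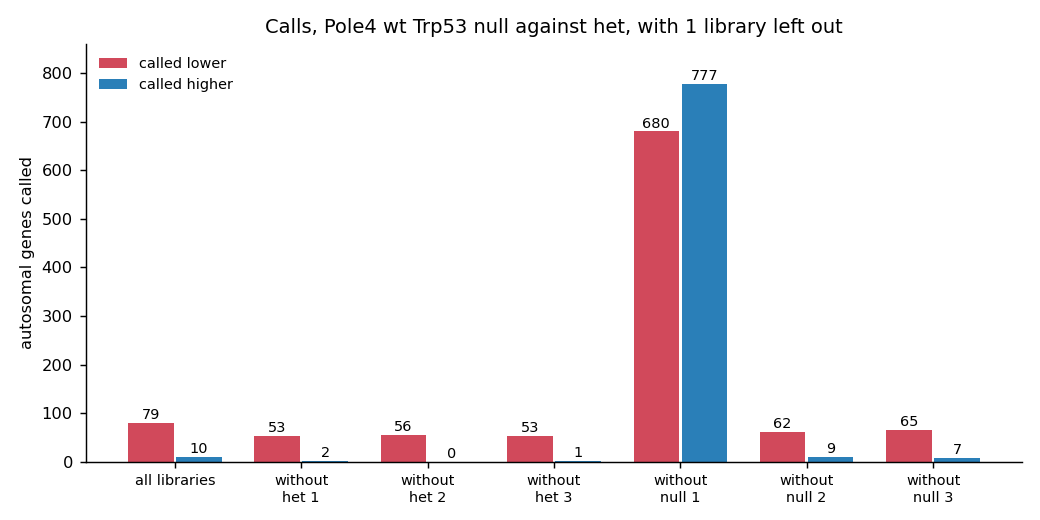
Number of autosomal genes called lower and higher in Trp53 null against Trp53 het Pole4 wt cells (bars, y axis from 0), with all 18 libraries in the model and with each of the 6 compared libraries left out in turn. The counts are 79 and 10 with all libraries and 680 and 777 without null replicate 1.

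Other gene groups had few calls with all libraries in the model, where 0.522% of all genes were called lower and 0.0661% higher. Of 35 interferon-stimulated genes tested, 1 was called higher (Ifit2) and 0 lower, and the median was 0.46. Their summed level was 191, 193 and 208 CPM in the het and 319, 185 and 150 CPM in the null libraries, and without null replicate 1 their median was -0.29, with 2 of 34 called lower and 2 higher, shares near the 4.43% and 5.06% of all genes. The 24 genes of the IGF axis and imprinted growth loci had 0 calls (2 lower without null replicate 1, with a median of -0.19 in place of 0.13), at 8129, 7714 and 11120 against 14270, 7533 and 6483 CPM. Null replicate 1 was the highest of the 6 libraries in both groups. Within the second, Dlk1 had 26.2, 14.6 and 17.8 against 79.4, 24.1 and 32.2 CPM (1.21, SE 0.47, adjusted p 0.449) and Igfbp2 had a log2 fold change of -0.78 (adjusted p 0.471).

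Collagen and matrix genes had a median of -0.28 over 39 tested, with 1 called lower and 0 higher (0.522% and 0.0661% of all genes). Without null replicate 1, 8 were called lower (4.43% of all genes), at a median of -0.60. With the Y-linked covariate the median was -0.17. Myofibroblast contractile genes (25 tested, median -0.03), cytokines, chemokines and proteases (30, -0.06), Hox genes (35, 0.08), cholesterol genes (23, 0.14), glycolysis and hypoxia genes (24, -0.21) and NRF2 antioxidant genes (17, 0.09) had 0 calls each, and of 23 ATF4 response and serine synthesis genes (median -0.31) Sesn2 was the only call. Without null replicate 1, 5 of the 30 cytokine, chemokine and protease genes, 2 Hox genes, 2 ATF4 response genes and 1 glycolysis gene were called lower, where 4.43% of all genes were, and 1 myofibroblast gene higher, where 5.06% were. The Hox, glycolysis and myofibroblast shares are near those of all genes, and the cholesterol and NRF2 lists still had 0 calls. The medians of 3 lists then turned sign, to 0.16 for myofibroblast, -0.15 for Hox and -0.012 for cholesterol genes, and that of the cytokine list went to -0.17. Lif, encoding a cytokine of the interleukin 6 family, had 9.22, 12.2 and 9.22 against 2.98, 6.09 and 6.63 CPM (-0.99, SE 0.27, adjusted p 0.181). Gpi1, of glycolysis, had 356, 343 and 355 against 265, 296 and 255 CPM (-0.37, SE 0.09, adjusted p 0.0776), and Slc2a1, the glucose transporter gene, 141, 119 and 142 against 91.2, 116 and 107 CPM (-0.36, SE 0.11, adjusted p 0.283). In each of these 3 the groups did not overlap, without reaching the threshold. Of all genes tested, 4.84% lay below all het libraries in the same way. The remaining members with the lowest p on these lists were Mmp2, Myh11, Ankrd1, Hoxb9, Hoxd12, Insig1, Acat2, Osgin1 and Slc7a11, with adjusted p between 0.273 and 0.683.

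Among marker genes of cell types, the fibroblast markers Prrx1 and Thy1 gave 0.33 and -0.39 on the log2 scale (adjusted p 0.314 and 0.360). Lpl, lipoprotein lipase and an adipocyte marker, had 5.99, 3.46 and 4.43 against 12.7, 8.42 and 9.94 CPM (1.14, SE 0.27, adjusted p 0.0803). The epithelial keratin gene Krt8 had 0.212, 0.0666 and 0.532 against 0.335, 1.32 and 2.75 CPM (2.47, SE 0.80, adjusted p 0.304), and the muscle gene Myod1 0.0265, 0 and 0.177 against 0.586, 0.233 and 1.05 CPM. Both were scarce in every library. The summed muscle level given above was lower in the null libraries, but 9 of the 12 tested muscle markers had a log2 fold change above 0, with a median of 0.98 (0.28 without null replicate 1), and 4 to 9 of the 17 were over 1 CPM in null libraries against 3 or 4 in het libraries. The 3 below 0, named for their sign, were Acta1, Des and Pax7, at -0.82, -0.32 and -0.19 on the log2 scale. Comp, a cartilage matrix gene, was high in null replicate 1 alone, at 7.73 CPM against 0.310 and 1.13 CPM in the other null and 0.399 to 0.636 CPM in the het libraries. The endothelial sum was likewise lower in the null libraries and made up mostly of Eng, but 4 of the 6 tested endothelial markers had a log2 fold change above 0, with a median of 0.30 (-0.032 without null replicate 1). The cartilage and bone sum was lower than in any het library in 2 of the 3 null libraries, but 7 of the 10 tested markers were above 0, with a median of 0.17 (-0.11 without null replicate 1). All 4 tested epithelial and all 6 tested adipocyte markers were above 0, with medians of 1.31 and 0.30 (1.54 and 0.31 without null replicate 1). Of these marker lists 1 gene, Eng, was called. Without null replicate 1, 1 fibroblast and 1 cartilage and bone marker were also called lower, and 1 muscle, 1 epithelial and 1 adipocyte marker higher, where 4.43% of all genes were called lower and 5.06% higher, so that 1 of 15 fibroblast markers is near the share of all genes. The part of these cell types in the results was not tested.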

How the data were processed

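RNA was taken from MEF cultures of 6 genotypes, 3 libraries each. Poly(A) RNA libraries were made with an Ovation kit that is not said to keep strand, sequenced as paired-end reads, aligned with STAR 2.5.2 to GRCm38 and counted with RSEM 1.3.0, versions as in the submitters' processing notes. The deposited values are the authors' RSEM expected counts (estimated counts, 6.14% of them not whole), which were rounded. RSEM shares reads between similar genes, which can blur paralogs. Library totals are given with the data, and deeper libraries measure low genes with less counting error. The low-count filter (filterByExpr), TMM scaling and robust quasi-likelihood F-tests were run in edgeR 4.0.16 (R 4.3.3) over all 18 libraries with 1 mean per genotype (12 residual degrees of freedom). Genes were called at a Benjamini-Hochberg adjusted p under 0.05 over all 15710 genes. SE is the log2 fold change divided by the square root of F. In simulated counts of this comparison over 15211 genes, 79% of 100 genes changed by 1 and 99% of 100 changed by 2 on the log2 scale were recovered, with 9 false calls. The simulation held no library that stands apart, as null replicate 1 does, and no structure by sex or replicate number. It changed no genes of very low level, so recovery in the real data may be lower. DESeq2 1.42.0 and limma's voom (3.58.1) were alternatives.

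Same-numbered het and null libraries deviated together (correlations of 0.25, 0.586 and 0.144 of their deviations from the group means, each best with its own number), so a fit with the number as a block was run too. The labels do not say that libraries came from separate embryos, so p-values measure the spread between these samples, which may in part be technical. Genes were named by rule: Trp53, Pole4 and fixed TRP53 target, polymerase, cyclin, CDK and E2F genes, the 10 lowest and 10 highest called log2 fold changes, the 8 lowest p in each direction, up to 4 called members per list (or the 2 with the lowest p) and 5 genes of the interaction. The members and the 32 lists, written from memory, were chosen with earlier results of these data known.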

Additional observations from a re-analysis of the deposited data

Results flagged for a closer look

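Data outside the autosomal comparison held 3 signals. The Y-linked genes Ddx3y, Eif2s3y, Kdm5d and Uty had 258 counts in Trp53 null replicate 1, a library that is female by Xist, against 0 to 10 counts in the other 10 female libraries. On the X chromosome 2 of the 576 tested genes outside the autosomes were called. Xist was not one of them, at 0.583, 1.997 and 0 CPM in Trp53 het against 857, 375 and 556 CPM in Trp53 null cells. A gene that differs with sex can thus go uncalled in this model, and the 2 calls are not a full count of such differences. Eda2r, encoding a TNF receptor family member that binds ectodysplasin A2, had a log2 fold change of -5.55 (38.3, 33.1 and 29.7 CPM in Trp53 het against 1.12, 0.272 and 0.647 CPM in Trp53 null cells, edgeR adjusted p 1.53e-08), and of -6.44 in Pole4 null cells. Mum1l1 had one of 0.515 (22.1, 23.6 and 23.1 against 31.1, 34.3 and 32.8 CPM, edgeR adjusted p 0.00978). Sex differs between the groups for both genes. With the Y-linked level as a covariate Eda2r stayed at -5.34 (edgeR adjusted p 2.96e-07), while Mum1l1 was at 0.409 and no longer called (edgeR adjusted p 0.192).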

How the results depend on the processing

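Trp53 kept its direction and its call under every alternative run, and its log2 fold change ranged from -2.53 to -2.30 when 1 of the 6 libraries was left out. The counts of genes called moved more. The 79 genes lower and 10 higher became 143 and 55 with DESeq2, 450 and 703 with voom, 34 and 0 with the Y-linked level as covariate, 27 and 4 with scaling by library totals alone, 15 and 1 with only the 6 libraries compared, 39 and 1 with only the 9 Pole4 wt libraries, 42 and 0 at an adjusted p under 0.01, and 47 and 6 with a log2 fold change of at least 1. Leaving out 1 library gave 53 to 680 lower and 0 to 777 higher, the upper end of both without Trp53 null replicate 1. The 31 TRP53 targets called lower became 19 with the Y-linked level, 15 with library totals alone, 8 with 6 libraries, 20 with 9 libraries, 52 with voom and 22 to 54 with 1 library left out. The 0 cell cycle genes called higher became 5 with DESeq2, 1 with a mean of at least 50 counts, 127 with voom and 0 to 137 with 1 library left out. The 1906 genes called in Pole4 null cells became 1227 with library totals alone, 1270 with no filter on low counts, 3912 with voom, 644 at an adjusted p under 0.01 and 393 with a log2 fold change of at least 1, and leaving out libraries of that comparison was not run. The interaction, with 0 calls, had 19 with DESeq2, 3 with voom and 1 with the replicate block, and 0 whichever library was left out. With the replicate number as a block (pairing), 89 genes were called lower and 14 higher, 76 of the 79 and 7 of the 10 among them. Among the gene lists, arrest and growth restraint then went from 4 to 7 lower, collagens and matrix from 1 to 2 and endothelial markers from 1 to 0, and no other list count moved by over 1.5 times with the block. The 8 apoptosis targets called lower became 0 with only the 6 libraries, 1 with library totals alone and 5 to 11 with 1 library left out, and the 4 metabolism targets became 2 with the Y-linked level and 12 with voom. Fewer libraries leave fewer residual degrees of freedom, but why the counts moved was not tested for any setting.

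Some genes that were never called changed sign. With the Y-linked level as covariate Pole4 had a log2 fold change of -0.078, Ccne1 of -0.17, Itgam of -0.51 and Lpin3 of -0.039, and with voom C1qc had 0.63 and Comp -0.18. With 1 library left out Pole4 ranged from -0.11 to 0.27, Ccne1 from -0.17 to 0.39 and Lpin3 from -0.13 to 0.25. Genes at under 1 CPM, such as Klhdc7a, rest on few counts in the shallowest libraries.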
